A study of Mus musculus with 11 samples.

Results

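In activated satellite cells (ASCs), 5675 sites carried H3K4me3 at places where quiescent satellite cells (QSCs) of young mice had neither an H3K4me3 nor an H3K27me3 peak. These new sites were chosen by 3 conditions on the deposited peak lists: an H3K4me3 peak of ASCs, a score of at least 100, and not a single base shared with an H3K4me3 or an H3K27me3 peak of young QSCs. The score is the one the peak caller MACS wrote. It was read here as 10 times the negative log10 of the peak's p-value, from its lowest value of 50, and on that reading a score of 100 stands for a p-value of 1e-10. The ASC list held 32846 H3K4me3 peaks, of which 23839 reached that score. Among those, 17942 overlapped H3K4me3 of young QSCs and are called already marked sites here, 222 overlapped H3K27me3 of young QSCs only, and the new sites were the rest. A further 7433 new peaks fell short of the score and are called weak new peaks.

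The study profiled histone marks by ChIP-seq in satellite cells from the hindlimb muscles of male C57BL/6 mice, 1 library per cell state and mark. QSCs were sorted as VCAM+, CD31-, CD45- and Sca1- cells from uninjured mice, either young (2 to 3 months old) or old (22 to 24 months old). The sample descriptions state that ASCs were sorted young QSCs kept for 3 days on a matrix-coated surface in F10 medium with horse serum, whereas the paper speaks of cells from injured muscle, and the lists do not settle which applies. H3K4me3, H3K27me3 and H3K36me3 were profiled in young QSCs and ASCs, and H3K4me3 and H3K27me3 in old QSCs, with the antibodies Abcam 8580, Millipore 07-449 and Abcam 9050. No genetic change, drug or transgene is named for any group.

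H3K4me3 is the trimethylation of lysine 4 of histone H3, which marks promoters that are active or poised for transcription, and broad domains of it are known over genes that define a cell type. H3K36me3 is laid down along the body of genes as RNA polymerase II elongates, so it lies downstream of an active promoter and is usually low at the promoter itself. H3K27me3 is the Polycomb mark of repressed genes, and its overlap with H3K4me3 is often called bivalent. Satellite cells are the stem cells of skeletal muscle, which proliferate and then differentiate once activated.

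Each list comes from 1 library without a replicate and with an unknown number of reads. The design thus allowed no test, and a difference between QSCs and ASCs is a difference between 2 libraries, in which cell state, depth and quality of the immunoprecipitation cannot be told apart. Intervals in parentheses after a share or a median are 95% intervals (Wilson for shares, order statistics for medians) and cover counting error only. The lists of ASCs were longer than those of young QSCs, with 42880 against 20399 peaks and 70.0 against 29.1 Mb for H3K36me3. The peaks are placed on the mouse build mm9. No annotation of that build was used, so genes at the new sites are not named, and the sorted identity of the cells could not be checked against marker genes.

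New sites were narrow. Their median width was 971 bp (959 to 984), with quartiles of 787 and 1305.5 bp and a range from 260 to 21049 bp. In the class under 1 kb there were 2997 new sites (52.8%), between 1 and 2 kb 2227 (39.2%), between 2 and 3 kb 299 (5.27%) and over 3 kb 152 (2.68%). Already marked sites were wider, with a median of 1809 bp and 15.5% of them over 3 kb, and only 14.1% lay in the narrowest class. The weak new peaks were narrower still, with a median of 558 bp.

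**Figure D1:**
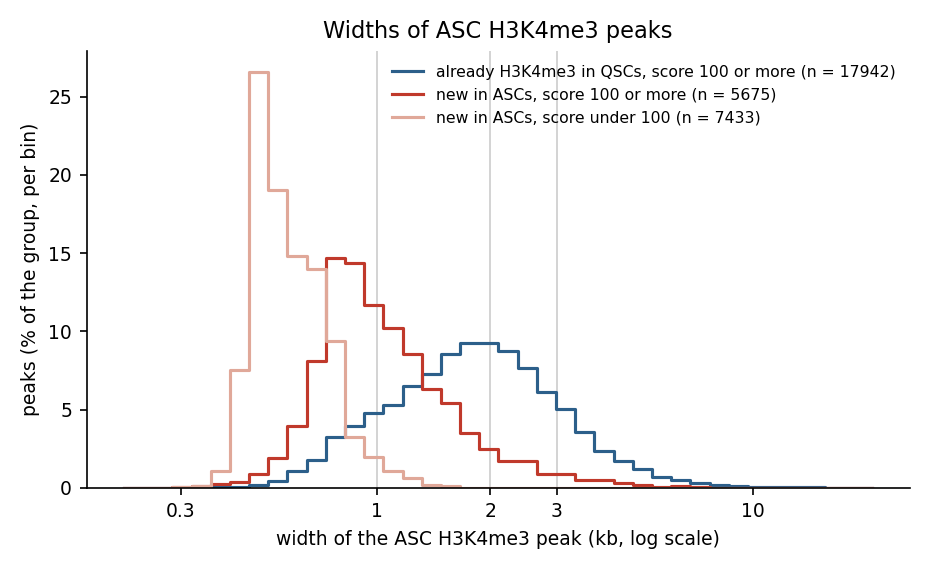
Width of ASC H3K4me3 peaks in kb on a log scale (x axis) against the percentage of the peaks of each group that fall in a bin (y axis), as lines for the new sites, the already marked sites and the weak new peaks, with grey lines at the class edges of 1, 2 and 3 kb. The new sites, with a median of 971 bp, lie between the weak new peaks (558 bp) and the already marked sites (1809 bp).

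Width and score went together among the new sites. The median score was 169, with quartiles of 126 and 274, and it was 134 under 1 kb, 236 between 1 and 2 kb, 595 between 2 and 3 kb and 2133 over 3 kb. Other ASC peaks scored far higher, with a median of 3100 for already marked sites and 1773 for all with a score of at least 100. A score of at least 1000 was reached by 194 new sites (3.42%), and 122 of these were over 3 kb wide, which is 80.3% of that class. No site under 1 kb reached it. The weakest member had a score of 100 and the strongest peak just outside had 99.99, with 73 members less than 1 unit above the limit and 68 otherwise eligible peaks at most 1 unit below it. These values chose the members or come from the same peaks and are given as a description.

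The sites with the highest scores in each class show the range. In the class over 3 kb, 58 of the 152 new sites had a score of 3100 or more, beside 2647 of the 2786 already marked sites. The highest new sites were chr2:52188479-52192131 (3653 bp, score 3184) and chr2:164601742-164606026 (4285 bp, score 3132). Among the new sites tied at 3100, the widest was chrX:166426128-166447176 (21049 bp). That site on the X chromosome was also the widest of all, followed by chr8:15055900-15064754 with 8855 bp. It lay 27 bp from another new site, 79834 bp from the nearest young QSC H3K4me3 peak and 674393 bp from the nearest ASC H3K36me3 peak. The next widest were chr1:89101193-89108308 (7116 bp), chr2:29522281-29529166 (6886 bp) and chr8:86095582-86102464 (6883 bp).

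In the class from 2 to 3 kb, chr4:131951517-131954457, chr1:136186407-136189000 and chr4:133870811-133873128 all stood at 3100, a score at which many peaks of these lists are tied. Among sites of 1 to 2 kb, chr2:26926661-26928531 reached 3100, chr7:52869364-52871153 reached 2597 and chr8:46743970-46745842 reached 2465. The first of these lay 17 bp and the last 47 bp from another new site. Under 1 kb the highest scores were 699 at chr1:29793969-29794521, 669 at chr9:21705455-21706397 and 658 at chr1:36087504-36088487.

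Most new sites were not beside a peak of quiescent cells. The gap to the nearest young QSC H3K4me3 peak had a median of 13531 bp (12722 to 14108), with quartiles of 4242 and 37035 bp. The rule allows no shared base, and the smallest gap was 2 bp. Gaps of at most 1 kb were found for 463 new sites (8.16%), 1 to 5 kb for 1125 (19.8%), 5 to 50 kb for 3040 (53.6%) and more than 50 kb for 1047 (18.4%). Together, 1588 new sites (28.0%, 26.8% to 29.2%) lay within 5 kb of a quiescent peak, and 18.6% when peaks less than 1 kb apart were merged.

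Sites of 2 to 3 kb lay somewhat closer to quiescent peaks than the narrowest ones. The median gap was 14364 bp (13531 to 15631) under 1 kb, 12740 bp (11531 to 13899) at 1 to 2 kb, 10418 bp (8430 to 11805) at 2 to 3 kb and 11264 bp (8556 to 15408) over 3 kb. Gaps of more than 50 kb were found for 20.3%, 16.7%, 13.7% and 17.1% of these classes. Within 5 kb of a quiescent peak lay 27.4% of the sites under 1 kb, 28.1% of those of 1 to 2 kb, 33.4% of those of 2 to 3 kb and 27.6% of those over 3 kb. The median width was 934, 1004, 984 and 917 bp from the nearest to the farthest of the 4 distance classes, and the median score 166, 178, 168 and 166. Measured to the ASC peaks that were already marked in QSCs, 645 new sites (11.4%) lay within 1 kb.

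**Figure D2:**
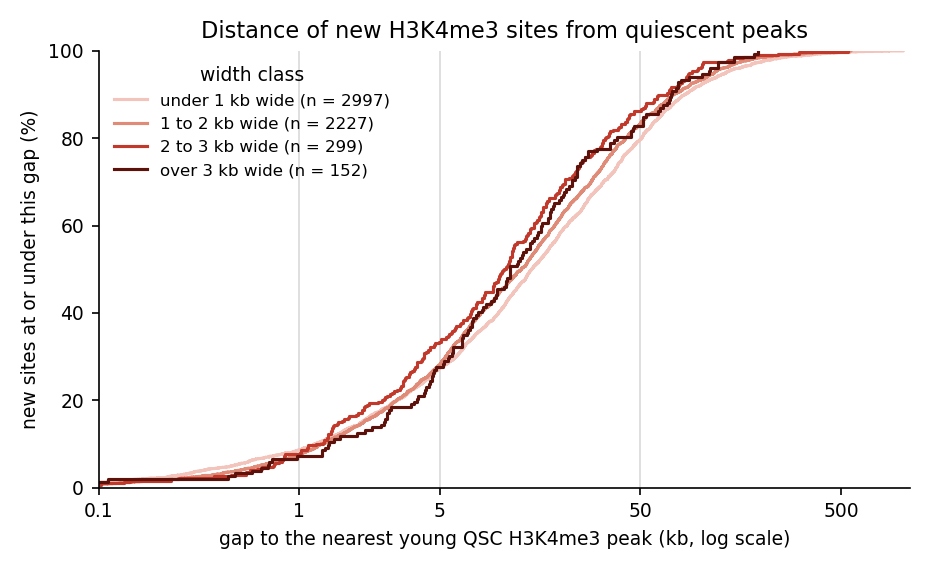
Gap in kb, on a log scale that starts at 0.1 kb, from each new site to the nearest young QSC H3K4me3 peak (x axis) and the percentage of new sites at or under that gap (y axis), with 1 line per width class and grey lines at 1, 5 and 50 kb. The 4 lines run close to each other and stand between 27.4% and 33.4% at 5 kb.

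Part of the new sites had another close by. The same share was not computed for other ASC H3K4me3 peaks, so it can not be read as particular to new sites. Another new site was found within 10 kb of 2319 of them (40.9%, 39.6% to 42.1%), and within 1 kb of 1264 (22.3%). Merging peaks less than 1 kb apart lowered the share with a neighbour within 10 kb to 21.0% and raised the share of sites over 3 kb from 2.68% to 9.75%. The share with a neighbour within 10 kb was 35.6% under 1 kb, 44.4% between 1 and 2 kb, 55.5% between 2 and 3 kb and 65.1% over 3 kb. When new sites with gaps of at most 10 kb were joined, 3356 stood alone, 593 pairs formed and 56 runs held 5 sites or more. Those long runs contained 326 sites, of which 68 (20.9%) overlapped H3K36me3 in ASCs, 18 (5.52%) overlapped it in young QSCs and 13 (3.99%) overlapped H3K4me3 in old QSCs. Of the 3356 lone sites, 264 (7.87%), 188 (5.60%) and 415 (12.4%) did. Over all ASC H3K4me3 peaks with a score of at least 100, the shares were 7.67%, 7.62% and 74.1%.

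The 3 longest runs differed in their other marks. The first, chr15:77621407-77669042, held 14 new sites of 672 to 1753 bp with scores from 121 to 787 over 47.6 kb. ASC H3K4me3 covered 55.3% of that span and young QSC H3K4me3 8.49%, while H3K36me3 covered 31.8% in ASCs and 14.7% in young QSCs. The second, chr12:8438696-8464211, held 9 sites over 25.5 kb, the widest 4434 bp and the highest score 3100. ASC H3K4me3 covered 75.5% of it, the nearest young QSC H3K4me3 peak was 40595 bp away, and it had no H3K36me3 peak in either cell state. The third, chr2:163169927-163190692, held 9 sites over 20.8 kb with 69.4% of the span under ASC H3K4me3, and ASC H3K36me3 on 3 of its sites with none in young QSCs.

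H3K36me3 was not used to choose the sites. It overlapped 618 new sites in ASCs (10.9%, 10.1% to 11.7%) and 374 in young QSCs (6.59%, 5.97% to 7.27%). The shares over all 23839 ASC H3K4me3 peaks of that score were 7.67% and 7.62%. A site was counted as gaining H3K36me3 when it overlapped an ASC peak and no young QSC peak of that mark, and as losing it in the opposite case. By this count 373 new sites gained the mark (6.57%, 5.96% to 7.25%), beside 4.15% of all ASC H3K4me3 peaks, and 129 lost it (2.27%), beside 4.11% of all. With equally long H3K36me3 lists the gain was seen at 3.98% of the new sites and at 2.43% of all ASC H3K4me3 peaks. Both cell states had it at 245 new sites (4.32%), and 4928 new sites (86.8%) had it in neither.

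Gains outnumbered losses at new sites, whereas losses were the more frequent at already marked sites. The 373 gains were 2.89 times the 129 losses, so 74.3% (70.3% to 77.9%) of the new sites that changed had gained. The weak new peaks were alike, with 375 gains against 122 losses and 75.5% (71.5% to 79.0%) gained. The excess of gains was thus not particular to the new sites. At already marked sites 613 gains (3.42%) stood against 844 losses (4.70%), and gains made up 42.1% (39.6% to 44.6%). Since the ASC list held 2.10 times as many H3K36me3 peaks, the count was repeated with equally long lists, a setting chosen after the data were seen, which gave 57.2% (52.3% to 62.0%) for new and 27.04% (24.7% to 29.5%) for already marked sites. With H3K36me3 peaks of a score of at least 100 only, also chosen later, the shares were 82.3% and 63.5%, so the excess of losses at already marked sites turned while the order of the groups did not.

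The gain rose with the width of the new site. It was found at 133 sites under 1 kb (4.44%), 154 of 1 to 2 kb (6.92%), 37 of 2 to 3 kb (12.4%) and 49 over 3 kb (32.2%, 25.3% to 40.0%). Losses numbered 62, 53, 13 and 1 in the same order. Already marked sites of the same classes gained the mark in 1.62%, 1.14%, 3.77% and 10.9% (9.77% to 12.1%) of cases, and lost it at 122, 359, 195 and 168 sites. In each class the share was higher at new than at already marked sites, a difference that was not tested. At weak new peaks it was 5.00% under 1 kb and 6.74% at 1 to 2 kb. The intervals count sites as independent, although many new sites lie close to another.

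Which classes kept an excess of gains depended on the length of the list. With equally long H3K36me3 lists, the new sites over 3 kb had 33 gains against 1 loss and those of 1 to 2 kb 105 against 70, but the sites under 1 kb had 67 gains against 80 losses. With scores of at least 100 the broad class had 39 gains and 0 losses. Under those settings 21.7% and 25.7% of the broad new sites gained the mark, beside 6.86% and 9.76% of the broad already marked sites. A wider site offers more bases for an overlap, and in young QSCs H3K36me3 covered part of 5.57%, 6.78%, 13.7% and 9.87% of the new sites from the narrowest to the widest class, against 7.94%, 11.3%, 21.7% and 41.4% in ASCs.

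**Figure D3:**
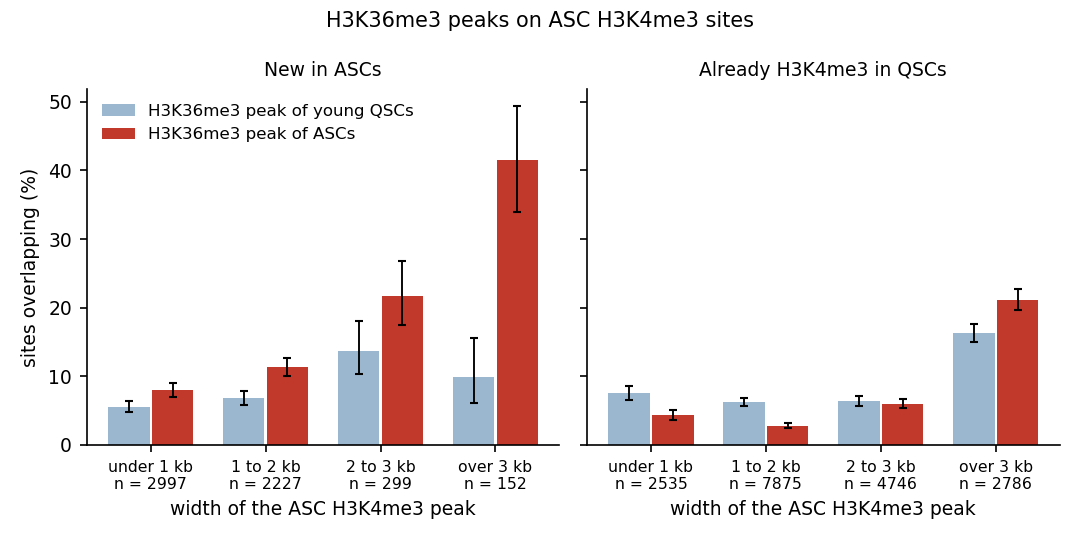
Percentage of ASC H3K4me3 sites that overlap an H3K36me3 peak of young QSCs (light blue bars) or of ASCs (red bars) in each width class (x axis, with the number of sites), for new sites on the left and already marked sites on the right, and with Wilson 95% intervals as error bars. Among new sites over 3 kb the ASC bar reaches 41.4% and the QSC bar 9.87%.

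Because H3K36me3 lies in gene bodies rather than at promoters, it was also read within 10 kb of each site. In ASCs 46.0% of the new sites had such a peak on the site or within 10 kb, and in young QSCs 29.5%, beside 42.8% and 34.8% of the already marked sites. Presence in ASCs with absence in young QSCs was found for 1230 new sites (21.7%, 20.6% to 22.8%), beside 17.3% of all ASC H3K4me3 peaks. The opposite was found for 296 new sites (5.22%), beside 7.33% of all. The share with presence in ASCs only was 19.2%, 22.4%, 28.1% and 48.7% from the narrowest to the widest new sites, and 6.07%, 12.3%, 21.4% and 26.5% for the already marked sites. These counts were not repeated with equally long lists.

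Most broad new sites had H3K36me3 near them in ASCs. In ASCs 121 of the 152 (79.6%) had a peak on the site or within 10 kb, and in young QSCs 51 (33.6%), beside 64.9% and 44.3% of the broad already marked sites. The ASC mark lay in the flank of 1 side only at 84 sites (55.3%) and on both sides at 37 (24.3%), against 44.8% and 18.8% of the broad already marked sites. Of the 101 broad new sites with no young QSC H3K36me3 within 10 kb, 74 (73.3%, 63.9% to 80.9%) had it in ASCs, beside 47.5% (45.0% to 50.0%) of the 1553 such broad already marked sites. Nor was this comparison repeated with equally long lists. The nearest ASC H3K36me3 peak was a median of 769 bp away from broad new sites and 17719 bp from those under 1 kb, whereas the nearest young QSC peak was 19937 and 33154 bp away.

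The length of H3K36me3 near the site showed where the new sites stood apart from the list as a whole. Over the site and 10 kb on each side, new sites had a mean of 2.22 kb under H3K36me3 peaks in ASCs and 0.978 kb in young QSCs, a ratio of 2.27, while the whole lists differed 2.41-fold in covered length. The new sites as a whole thus stood close to the difference between the lists. Their ratio was above the 1.86 of all ASC H3K4me3 peaks with a score of at least 100. It was also above the 1.74 of the already marked sites. The weak new peaks had a ratio of 2.35, so the higher ratio was not particular to the new sites. The broad new sites had 4.92 kb in ASCs and 1.29 kb in young QSCs, a ratio of 3.81, with more H3K36me3 in ASCs at 113 of the 152 and less at 12. Broad already marked sites had 3.25 and 1.63 kb, a ratio of 2.00. With equally long lists, added after the data were seen, the ratio was 1.70 for all new sites, 3.16 for broad new sites, 1.57 for broad already marked sites and 1.62 for the lists. It was 1.40 for all ASC H3K4me3 peaks of that score, 1.31 for already marked sites of any width and 1.69 for weak new peaks.

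Around the centres of the broad new sites, ASC H3K36me3 dipped at the H3K4me3 peak and was higher on the flanks. It covered 10.5% of the sites at the centre and 25.7% at its highest point, at an offset of -4000 bp. As a mean of both sides, it covered 23.4% at 5 kb, 20.7% at 10 kb and 14.1% at 30 kb. In young QSCs the values were 3.95% at the centre, 5.26% at 5 kb, 5.92% at 10 kb and 2.96% at 30 kb, with a highest point of 10.5% at an offset of 18000 bp. Broad already marked sites also dipped at the centre, at a lower level, with 2.98% at the centre and 15.5% at 10 kb in ASCs. At new sites under 1 kb, ASC H3K36me3 covered 6.67% at the centre and 8.78% at 5 kb. Young QSC H3K36me3 was highest at the centre of those narrow sites, at 5.07%. The sides are those of the chromosome and not of transcription, since no gene direction was used.

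**Figure D4:**
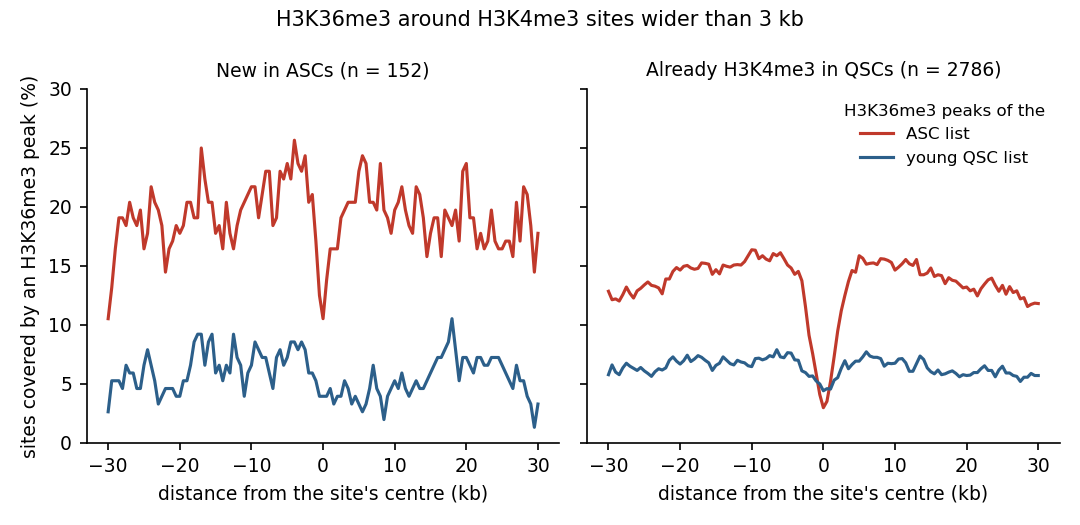
Distance from the centre of H3K4me3 sites over 3 kb in kb (x axis) and percentage of these sites covered by an H3K36me3 peak at that distance (y axis), for the ASC list (red) and the young QSC list (blue), with the 152 new sites on the left and the 2786 already marked sites on the right. The ASC line of the new sites falls to 10.5% at the centre and peaks at 25.7%, and its young QSC line stays at or under 10.5%.

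Single broad sites differed in their H3K36me3. At chr1:89101193-89108308, the third widest new site, an ASC H3K36me3 peak with a score of 291 covered 65.9% of the H3K4me3 site, and the nearest young QSC H3K36me3 peak lay 5443 bp away. At chr2:164601742-164606026 an ASC H3K36me3 peak with a score of 71.6 covered 20.9% of the site. At chr8:86095582-86102464 both cell states had the mark, 2488 bp of the site in ASCs and 1059 bp in young QSCs. The strongest new site, chr2:52188479-52192131, had no H3K36me3 on it, but 7433 bp within 10 kb in ASCs and none in young QSCs, where the nearest peak was 359846 bp away. The site of 6886 bp at chr2:29522281-29529166 had none on it, and 822 bp within 10 kb in ASCs against 647 bp in young QSCs. The widest site, on the X chromosome, had none on it or within 10 kb in either cell state.

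Some broad sites were picked, after their values were seen, for the most ASC H3K36me3 within 10 kb and none there in young QSCs. Their long stretches in ASCs alone therefore follow from the choice. At chr1:137731405-137735762 (4358 bp, H3K4me3 score 3100) ASC H3K36me3 covered 10325 bp of the site and its 10 kb flanks, and the nearest young QSC peak of that mark lay 65169 bp away. At chr2:31810643-31814621 (3979 bp) it covered 9349 bp, at chr2:163187650-163190692 8980 bp and at chr14:35398126-35402198 8830 bp. The site at chr2:163187650-163190692 is the last of the run of 9 on chromosome 2. The ASC H3K36me3 peaks on the picked sites had scores of 206, 218, 75.7 and 101 in that order.

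The score and the distance of a new site also went with its H3K36me3. From scores of 100 to 150 up to scores of at least 1000, the share with ASC H3K36me3 was 8.64%, 10.0%, 9.31%, 12.6%, 18.6% and 30.9%, with further band edges at 200, 300 and 500. For young QSC H3K36me3 it was 5.67%, 6.36%, 7.08%, 7.54%, 9.17% and 8.25%. Of the 194 sites in the highest band, 122 were over 3 kb wide, so score and width were not separated. The shares per band were not computed for all ASC H3K4me3 peaks. By distance from the nearest quiescent H3K4me3 peak the gain was 7.34% at up to 1 kb, 9.07% at 1 to 5 kb, 6.84% at 5 to 50 kb and 2.77% beyond 50 kb. New sites that gained H3K36me3 had a median width of 1164 bp and lay a median of 7582 bp from a quiescent H3K4me3 peak, and those without H3K36me3 in either state had 952 bp and 15020 bp. Where both cell states had the mark, the median distance was 5356 bp. More than 50 kb from a quiescent peak, 3.44% of the new sites had ASC H3K36me3, the lowest share of the 4 distance classes.

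Old QSCs rarely had H3K4me3 at the sites that were new in ASCs. A peak of the old QSC H3K4me3 list overlapped 553 new sites (9.74%, 9.0% to 10.5%), compared with 17037 already marked sites (94.96%, 94.6% to 95.3%) and 74.1% of all ASC H3K4me3 peaks with a score of at least 100. That the new sites fall below the already marked ones follows in part from the rule, since it removed every site with a peak in young QSCs. By width class the share was 10.4%, 9.03%, 8.36% and 9.21%, without a rise toward the broad sites. By score it was 7.01% at 100 to 150 and between 9.40% and 13.5% in the 5 higher bands. Among weak new peaks it was 4.41%.

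The old peaks on new sites were weak. Their median score was 76.6, with quartiles of 60.7 and 106, and 158 of the 553 (28.6%), or 2.78% of all new sites, reached 100, whereas the old peaks on already marked sites had a median score of 2037. Low scores were not particular to the old peaks on new sites. Of all 4770 old QSC H3K4me3 peaks without a counterpart in young QSCs, 951 reached a score of 100. Of the 524 among those 4770 that overlapped a new site, 131 did. At 24 of the 553 new sites the old peak also reached over a young QSC H3K4me3 peak, at most 676 bp away. These 24 had a median old score of 541, compared with 74.9 for the other 529. The 4 highest old scores, all 3100, were at chr14:62298804-62299641, chr9:66357442-66358808, chr17:17966210-17967140 and chr10:93105579-93106521. They were picked after their values were seen, and lay 87, 74, 114 and 179 bp from a young QSC peak.

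New sites with H3K4me3 in old QSCs had H3K27me3 more often than the others. H3K27me3 of old QSCs overlapped 53 of the 553 (9.58%) and 73 of the 5122 that old QSCs lacked (1.43%), and H3K27me3 of ASCs overlapped 45 (8.14%) and 64 (1.25%). All these shares stood below those of all ASC H3K4me3 peaks with a score of at least 100, 15.8% and 20.3%. The widths were similar, with medians of 937 and 974.5 bp, and the scores were 208 and 166. Gaps of at most 1 kb to a young QSC H3K4me3 peak were more frequent among the shared sites, with 73 (13.2%) against 390 (7.61%). Seen from old QSCs, 4770 of their H3K4me3 peaks had no counterpart in young QSCs, and 524 of these (11.0%) overlapped a new site of ASCs. Of the 951 with a score of at least 100, 131 (13.8%) did.

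H3K27me3 was scarce at new sites. In ASCs it overlapped 109 of them (1.92%, 1.59% to 2.31%), beside 20.3% of all ASC H3K4me3 peaks with a score of at least 100 and 25.5% of the already marked sites. The ASC H3K27me3 list held 38307 peaks, and when only its 11658 peaks of highest score were kept, the length of the young QSC list, the shares were 0.863%, 16.5% and 20.9%. The rule bears on this too, because it removed sites with H3K27me3 in young QSCs. In old QSCs H3K27me3 overlapped 126 new sites (2.22%), beside 15.8% of all. Of the 109 sites with both marks in ASCs, 45 (41.3%) had H3K4me3 in old QSCs and 48 (44.0%) H3K27me3 there. These 2 shares were not computed for the other ASC H3K4me3 peaks with H3K27me3. They can therefore not be read as particular to new sites. The highest H3K27me3 score in ASCs, 3100, was at chr5:37479667-37480899, a new site of 1233 bp picked after its values were seen.

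**Figure D5:**
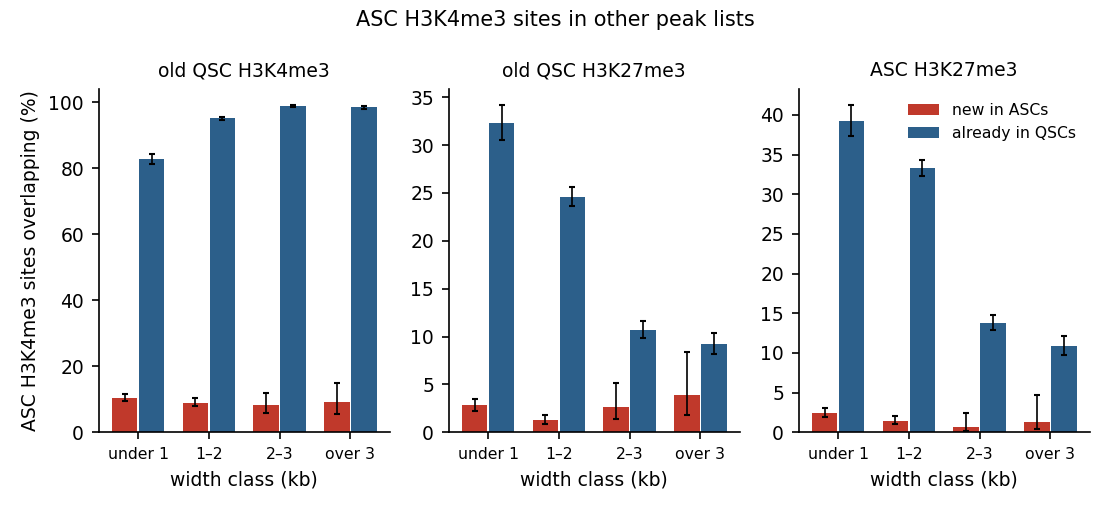
Percentage of ASC H3K4me3 sites in each width class (x axis, in kb) that overlap a peak of old QSC H3K4me3, old QSC H3K27me3 or ASC H3K27me3 (3 panels with their own y axes), for new sites (red) and already marked sites (dark blue), with Wilson 95% intervals. New sites stay between 8.36% and 10.4% in old QSC H3K4me3 whatever their width.

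In the 5 lists that the rule did not use, 4358 new sites (76.8%, 75.7% to 77.9%) had no peak at all. This share was 78.8% under 1 kb, 77.1% between 1 and 2 kb, 67.2% between 2 and 3 kb and 50.0% over 3 kb. Most new sites were thus seen in 1 library only, and the broad class had a peak in another list most often. The same share was not computed for already marked sites or for all ASC H3K4me3 peaks. It can therefore not be read as particular to new sites. A wider site also offers more bases for an overlap.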

How the data were processed

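ChIP DNA (5 μg of antibody per reaction, 15 PCR cycles) was sequenced in 8 ChIP and 3 input libraries. Reads were aligned with Bowtie to mm9 according to the submitters' processing notes. The authors called peaks with MACS against input and deposited a list per ChIP library with start, end and score. Read numbers, and so depth, were not given in the sources used here, and the inputs were not analysed here. Scores depend on depth and served only to describe and filter peaks within a list.

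Overlaps (1 bp), gaps between nearest edges, covered lengths and runs were computed with pandas 2.3.3 and numpy 2.4.6 under Python 3.11.15, and Wilson intervals with scipy 1.17.1. The functions were tested on simulated data and checked against bedtools 2.31.1. Members, classes and lists were chosen with earlier results of these data known. Regions were named by rule: the 3 highest-scoring members of each width class, the 5 widest and the 3 longest runs. Others are stated as picked later. The gene tables at hand belong to GRCm38, so no gene or sequence was assigned. The alternatives were 7 settings of score, overlap, merging and list length.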

Additional observations from a re-analysis of the deposited data

How the results depend on the processing

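Of 84 recomputed values of 12 results, 39 stayed within the interval of the reported value (for the number of sites, within 1.5 times) and 45 did not. Some of the 39 could not move. A score limit on the other lists left the members as they were, and so their number, widths, gaps and neighbours. The sites over 3 kb, and so the gain among them, were the same at every score minimum. The number of new sites was 4246 after merging, and between 5212 and 5853 under the other settings but for the changes of the score minimum. With a score of at least 200 there were 2264 new sites, with a median width of 1352.5 bp, 6.71% over 3 kb, a median distance of 12473 bp, H3K36me3 at 13.6% in ASCs and 7.64% in young QSCs, a gain at 8.26%, old H3K4me3 at 12.7% and a neighbour within 10 kb at 27.2%. With all scores these were 13108 sites, 699 bp, 1.16%, 14817 bp, 9.19%, 5.40%, 5.71%, 6.72% and 53.6%, with 26.3% within 5 kb of a quiescent peak. An overlap of 50% of the shorter peak gave 12658 bp, 29.9% within 5 kb, H3K36me3 at 8.54% and 5.69%, and a gain at 5.16%. Merging peaks less than 1 kb apart gave a width of 1150 bp, 9.75% over 3 kb, 17634 bp, 18.6% within 5 kb, ASC H3K36me3 at 10.1%, a gain at 22.9% of sites over 3 kb, old H3K4me3 at 11.0%, ASC H3K27me3 at 2.43% and a neighbour at 21.0%. Lists of a mark cut to equal length by score gave ASC H3K36me3 at 7.66%, a gain at 3.96% and at 21.7% of sites over 3 kb, and ASC H3K27me3 at 0.876%. Scores of at least 100 in the other lists gave H3K36me3 at 7.96% and 3.86%, a gain at 5.23%, old H3K4me3 at 2.78% and ASC H3K27me3 at 1.30%. Without the sites at most 1 kb from a quiescent peak, the distance was 15732 bp, 21.6% lay within 5 kb and 39.5% had a neighbour. The cause was not tested, beyond what each setting removes. No paired analysis was possible because each cell state and mark had 1 library. The unknown depth limits every comparison of lists, since a weak site may be missing from the shallower one.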

Other observations

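New sites were unevenly spread over the chromosomes. They made up 10.3% (8.05% to 13.0%) of the 574 ASC H3K4me3 peaks with a score of at least 100 on the X chromosome, and between 20.1% on chromosome 10 and 28.2% on chromosome 16 on the autosomes. The X chromosome held 59 new sites, which is 1.04% of them, beside 2.86% of the already marked sites. The 21049 bp site is one of these 59.

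The same rule applied the other way, to young QSC H3K4me3 peaks with a score of at least 100 and with no H3K4me3 or H3K27me3 peak in ASCs, gave 1040 sites found in QSCs only. Their median width was 1012 bp, close to the 971 bp of the new sites. Of the sites found in QSCs only, 4 (0.385%) were over 3 kb, beside 152 (2.68%) of the new sites. H3K36me3 of young QSCs overlapped 371 of these sites (35.7%) and H3K36me3 of ASCs 162 (15.6%). At 236 of them (22.7%) H3K36me3 was lost and at 27 (2.60%) gained, beside 6.43% and 1.82% of all 18768 young QSC H3K4me3 peaks with a score of at least 100. With equally long H3K36me3 lists, a setting added after the data were seen, the shares were 26.1% and 1.25%, beside 7.23% and 1.02%. Old QSCs had H3K4me3 at 500 of the sites found in QSCs only (48.1%, 45.1% to 51.1%). Overlap with H3K36me3 and with old QSC H3K4me3 was not computed for all young QSC H3K4me3 peaks. Those shares can therefore not be read as particular to the sites found in QSCs only.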
